A study of Mus musculus with 12 samples.

Results

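The comparison described here asked how much of the transcriptional response to FGF2 was left when its receptors were blocked. It took 6 of the 12 libraries of the series: 3 from Ocy454 cells given BGJ398 and FGF2, and 3 from cells given BGJ398 and control medium. Ocy454 is an established mouse cell line of the osteocyte lineage that is expanded at 33C and differentiates at 37C. All cultures were differentiated for 5 days at 37C, pretreated for 1 h, treated for 48 h and lysed on differentiation day 7. BGJ398 was used at 200 nM and FGF2 at 2 ng/mL. The other 6 libraries, from cells given the DMSO vehicle with FGF2 (3 libraries) or with control medium (3 libraries), supplied the unblocked response against which the remainder was measured. No library is shared between the BGJ398 comparison and the DMSO comparison. Every group is the same cell line at 1 dose and 1 time, and the sample titles name no genetic change between groups. The labels do not say whether the triplicates came from separate passages. Each p-value therefore reflects variation among libraries, some of which may be technical.

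FGF2 is a secreted ligand that binds FGF receptors together with heparan sulfate and activates their intracellular tyrosine kinase domain. The adaptor FRS2 then couples the receptors to the RAS-ERK and PI3K pathways, and ERK induces its own inhibitors, among them Sprouty proteins and dual-specificity phosphatases. In cells of the osteoblast lineage FGF signalling is known to restrain matrix mineralization and to lower alkaline phosphatase. BGJ398 (infigratinib) is an ATP-competitive inhibitor of the FGF receptor kinases, so it leaves ligand and receptor in place and blocks the kinase step.

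Libraries held 18951710 to 27716975 reads, which gave 12115 to 12488 genes 10 reads or more in each. Of 35214 genes with a name, 12542 had enough reads to be tested. Levels are given as CPM, reads of a gene scaled to the library's reads over all tested genes. Some markers of mature osteocytes were low: Sost and Mepe had no read in any library, and Dmp1 did not pass 0.274 CPM in any. Of 14 listed osteocyte genes, 9 had enough reads to be tested, and the list summed to 611 to 660 CPM in the BGJ398 controls. That sum includes Hyou1, an endoplasmic reticulum chaperone gene that is also counted in another list, so it does not measure osteocyte markers alone. Levels of earlier lineage genes ranged widely in the 6 BGJ398-treated libraries. Col1a1 read 9090 to 11100 CPM, Alpl 15.8 to 20.2 CPM and Bglap 0.294 to 0.722 CPM. 3 libraries stood apart from their replicates along the main axis of within-group deviation, which held 34.7% of the within-group variance. They were BGJ398 replicate 1 (8.51 on that axis), BGJ398+FGF2 replicate 2 (15.7) and DMSO+FGF2 replicate 2 (9.79), while the other 9 lay between -8.74 and 2.48.

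Under BGJ398, no gene passed the test for FGF2 against control medium: 0 of 12542 (0%) had an adjusted p under 0.05 in edgeR's quasi-likelihood test with Benjamini-Hochberg adjustment, and the smallest adjusted p was 0.194. In DMSO the same test called 1680 genes (13.4%), of which 950 rose (7.57%) and 730 fell (5.82%). At an unadjusted p under 0.05, 325 genes (2.59%) passed under BGJ398, with 186 higher and 139 lower after FGF2. That count depended on the libraries used. It was 178 of 12237 genes in a fit of the 6 BGJ398-treated libraries alone and 743 of 12670 without BGJ398+FGF2 replicate 3. The 3 FGF2 libraries lay wholly above or wholly below the 3 controls for 792 genes (6.31%) under BGJ398 and for 4715 genes (37.6%) in DMSO. The median absolute log2 fold change over all tested genes was 0.06 under BGJ398 and 0.12 in DMSO. limma-voom also called 0 genes under BGJ398, and DESeq2 called 5, which are described further on. Without the 3 libraries that stood apart, edgeR called 4 genes under BGJ398 and 2611 in DMSO.

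**Figure D1:**
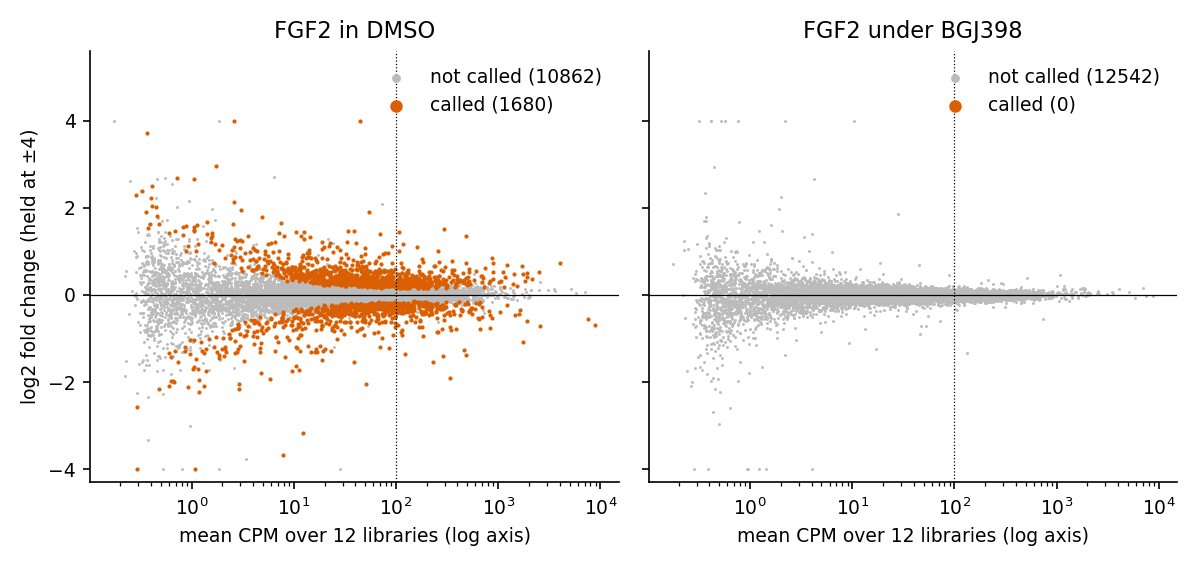
Log2 fold change after FGF2 (vertical axis, values beyond 4 drawn at 4) against mean CPM over 12 libraries (horizontal log axis), in DMSO (left) and under BGJ398 (right), with 1 point per tested gene. Orange points are the 1680 genes called in DMSO, none is called under BGJ398, and the dotted line marks 100 CPM.

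The difference between the 2 FGF2 changes was tested as an interaction, the log2 fold change under BGJ398 minus that in DMSO. It passed for 532 genes (4.24%), with 250 positive and 282 negative differences, and for 956 without BGJ398+FGF2 replicate 2. Of the 1680 genes called in DMSO, 523 (31.1%) had an interaction, so for the other genes called in DMSO a smaller response under BGJ398 did not pass the test of the difference itself. Intervals under BGJ398 were counted over all 1680 genes, those with and without an interaction together. They do not describe the genes without an interaction alone. The 95% interval of the change under BGJ398 held 0 for 1624 of the 1680 genes, excluded 0 in the direction seen in DMSO for 36 and excluded it in the opposite direction for 20. With the DMSO change taken as fixed, without its own error, that interval stayed below the full change for 1617 of the 1680 and below 50% of it for 860. An unadjusted p under 0.05 under BGJ398 was reached by 56 of them (3.33%, against 2.59% of all genes), and libraries that did not overlap were found for 118 (7.02%, against 6.31% of all genes). The change under BGJ398 had the sign of the DMSO change in 1003 of the 1680 genes (59.7%).

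Abundant genes gave the tightest limits. These were the 2472 protein-coding genes that averaged 100 CPM or more over the 12 libraries, which held 67.6% of the reads. For 2466 of them (99.8%) the 95% interval of the change under BGJ398 lay within 1.5-fold in either direction, and in DMSO the same held for 2335. Without the 3 libraries that stood apart the count under BGJ398 was 2470. The median absolute log2 fold change of abundant genes was 0.04 under BGJ398 and 0.10 in DMSO, and the 99th percentile was 0.18 under BGJ398 and 0.78 in DMSO. No abundant gene had an estimate past 1.5-fold under BGJ398, while 54 did in DMSO. Past 1.2-fold there were 8 under BGJ398 and 323 in DMSO. The largest change of an abundant gene was 1.37-fold under BGJ398 and 3.72-fold in DMSO. Of these 2472 genes, 466 were called in DMSO and 40 (1.62%, against 2.59% of all genes) had an unadjusted p under 0.05 under BGJ398. Calls in DMSO grew more frequent with level. They took in 18.2% of tested genes at 100 to 1000 CPM and 39.1% from 1000 CPM, against 13.4% of all genes.

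The spread between libraries differed by group. Among genes of 100 to 1000 CPM the median SD of the log2 level was 0.04 in the DMSO group, 0.06 with FGF2 in DMSO, 0.07 under BGJ398 and 0.10 under BGJ398 with FGF2. The BGJ398+FGF2 libraries thus varied most. The intervals and tests used 1 estimate of spread per gene shared by the 4 groups. They can therefore be too narrow for the BGJ398 comparison and too wide for the DMSO comparison. In a fit of the 6 BGJ398-treated libraries alone, 2460 of the 2472 abundant genes lay within 1.5-fold. A fit of the 6 DMSO libraries alone called 2438 genes in DMSO. The median half-width of the 95% interval corresponded to 1.10-fold at 100 to 1000 CPM, to 1.13-fold at 10 to 100 CPM, to 1.34-fold at 1 to 10 CPM and to 2.09-fold under 1 CPM. These half-widths are not detection limits of the adjusted test, which needs larger changes. Below 1 CPM 0 genes were called under BGJ398, although the 99th percentile of the absolute log2 fold change there was 5.17.

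The most abundant transcripts showed little or no movement under the block. Col1a1 and Col1a2, which encode the chains of type I collagen, fell in DMSO by 0.68 ± 0.09 and by 0.55 ± 0.06 on the log2 scale (SE, n = 3 per group, edgeR adjusted p 0.000232 and 6.44e-05). Under BGJ398 their changes were -0.03 ± 0.09 and -0.02 ± 0.06 (adjusted p 1). Sparc, a collagen-binding matrix glycoprotein, fell in DMSO by 0.70 ± 0.05 (adjusted p 8.74e-07). Under BGJ398 its libraries read 3110, 3030 and 2960 CPM without FGF2 and 3070, 3240 and 2960 CPM with it, a change of 0.03 ± 0.05. The cytoskeletal actin Actb changed by 0.05 ± 0.05 under BGJ398 and by 0.08 ± 0.05 in DMSO, and the translation factor Eef2 by 0.02 ± 0.07 and 0.11 ± 0.07, none of which passed. Gapdh, a glycolytic enzyme often used as a reference gene, rose in DMSO by 0.73 ± 0.11 (adjusted p 0.000731). Under BGJ398 it read 3590, 2950 and 2790 CPM without FGF2 and 3110, 4070 and 3040 CPM with it, and its change of 0.13 ± 0.11 did not pass. The highest of the 6 was BGJ398+FGF2 replicate 2, and the groups overlapped. The change was -0.02 without that library and 0.25 without control replicate 1. Gapdh was not among the genes for which a test of the difference between the 2 FGF2 changes passed. That test passed for it in 8 of 21 other settings, so a smaller response under BGJ398 was not shown for Gapdh.

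For 6 of the 2472 abundant genes the interval under BGJ398 reached past 1.5-fold: Nfat5, Rps29, mt-Atp6, mt-Co3, Bnip3 and Gm38394. In Nfat5, mt-Atp6 and Gm38394 the estimate itself was small (-0.18, 0.12 and -0.20 on the log2 scale) and the interval was wide. These 3 were named after their values were seen. mt-Co3, a mitochondrially encoded subunit of cytochrome c oxidase, had the largest estimate, 0.46 ± 0.15 (unadjusted p 0.00797, adjusted p 1). It read 1120, 1100 and 1030 CPM without FGF2 and 1220, 1790 and 1430 CPM with it, so the groups did not overlap. Of the 31-base words of its transcript, 99.9% also occur in other genes, so its reads are uncertain. The 8 genes past 1.2-fold were mt-Co3, Rps29, Bnip3, Sept2, Bhlhe40, S100a4, Egln1 and Rps28. Rps29 and Rps28 encode ribosomal proteins, and their changes of -0.35 ± 0.19 and -0.27 ± 0.14 had intervals that held 0.

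How complete the block was can be read from genes with a large response. In DMSO 176 genes were called and changed at least 2-fold, 88 up and 88 down, and these were taken as response genes. Their median log2 fold change in DMSO was 1.35 for those that rose and -1.34 for those that fell. Under BGJ398 the same 2 sets had medians of 0.06 and -0.08. The share of the DMSO log2 change that was kept under BGJ398 had a median of 4.68%, with a 10th percentile of -18.6% and a 90th percentile of 27.6%. Without BGJ398+FGF2 replicate 2, 192 genes met the same rule and their median share was 0%, and the 176 genes had a median of 0.148% in that fit. With all libraries, no response gene kept over 50%, and 20 kept over 25%. Because the genes were chosen by their estimate in DMSO, that estimate is on average too large, which lowers the share. The change under BGJ398 had the sign of the DMSO change in 114 of 176 (64.8%).

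**Figure D2:**
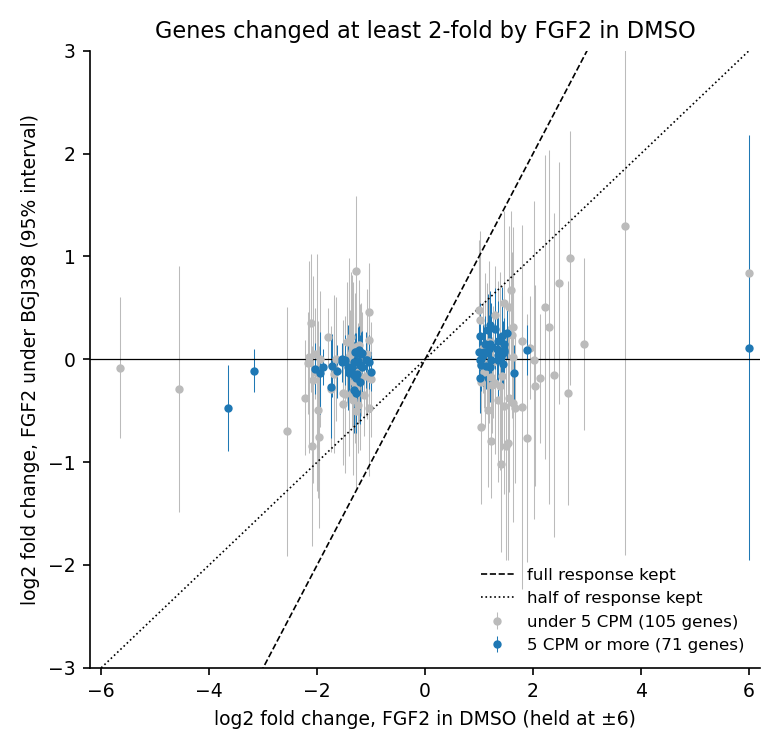
Each of the 176 response genes by its log2 fold change in DMSO (horizontal axis, values beyond 6 drawn at 6) and under BGJ398 (vertical axis, bars are 95% intervals). Genes of at least 5 CPM (blue, 71 genes) lie close to 0 on the vertical axis, and the long bars belong to genes under 5 CPM (grey, 105 genes), with 1 pseudogene at the right edge as an exception.

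The 95% interval under BGJ398 stayed below 50% of the DMSO change for 120 of the 176 response genes (68.2%) and below the full change for 172. These counts take the DMSO estimate as fixed and leave out its own error. That estimate is also on average too large for genes chosen by it. The interaction, which holds the error of both comparisons, passed for 100 of the 176. The 56 genes not bounded below 50% were weakly expressed, with a median of 1.13 CPM against 7.13 CPM for the bounded ones, and 49 of them were under 5 CPM. Of the 71 response genes with at least 5 CPM, 64 were bounded below 50%. All 13 abundant response genes were bounded, and they kept between -3.03% and 17.1% of their DMSO change, with a median of 5.76%.

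The slope of the change under BGJ398 on the change in DMSO, through the origin over the 176 response genes, was 4.62%. It describes these genes and is not tested. The processed pseudogenes Gm12918 and Gm10221 carried 23.6% and 10.3% of its weight. Gm12918 had 0 CPM in all 3 DMSO libraries and 0, 117 and 20.2 CPM with FGF2, so its fitted change in DMSO has no usable size, and all of its 31-base words occur in other genes. The slope was 3.40% over the 71 genes of at least 5 CPM and 6.61% over the 164 protein-coding genes. Without BGJ398+FGF2 replicate 2 the slope over protein-coding response genes was 1.43% (175 genes), and over all response genes it was -8.78%. With all libraries it was 0.212% in limma-voom (191 genes) and 2.19% in DESeq2 (190 genes), so its size depends on the tool.

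By library, the largest remainder was in BGJ398+FGF2 replicate 2. Each library was given a score, the mean signed distance of its response genes from the mean of its own control group as a percent of the mean DMSO response. The DMSO+FGF2 libraries scored 95.4%, 107% and 97.9%. The BGJ398+FGF2 libraries scored 1.64%, 12.4% and -1.49%, and the BGJ398 controls scored 2.48%, 2.00% and -4.47% around their own mean. Replicates 1 and 3 with FGF2 lay within the range of the controls, and replicate 2 lay above it. Over abundant response genes replicate 2 scored 17.4%, and replicates 1 and 3 scored 0.656% and -0.93%. Replicate 2 was also the library farthest out on the axis of within-group deviation. When the model was refitted without it, 95 of 192 response genes (49.5%) had the same sign in both comparisons, against 64.8% with it. The part of that deviation in the score was not tested.

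**Figure D3:**
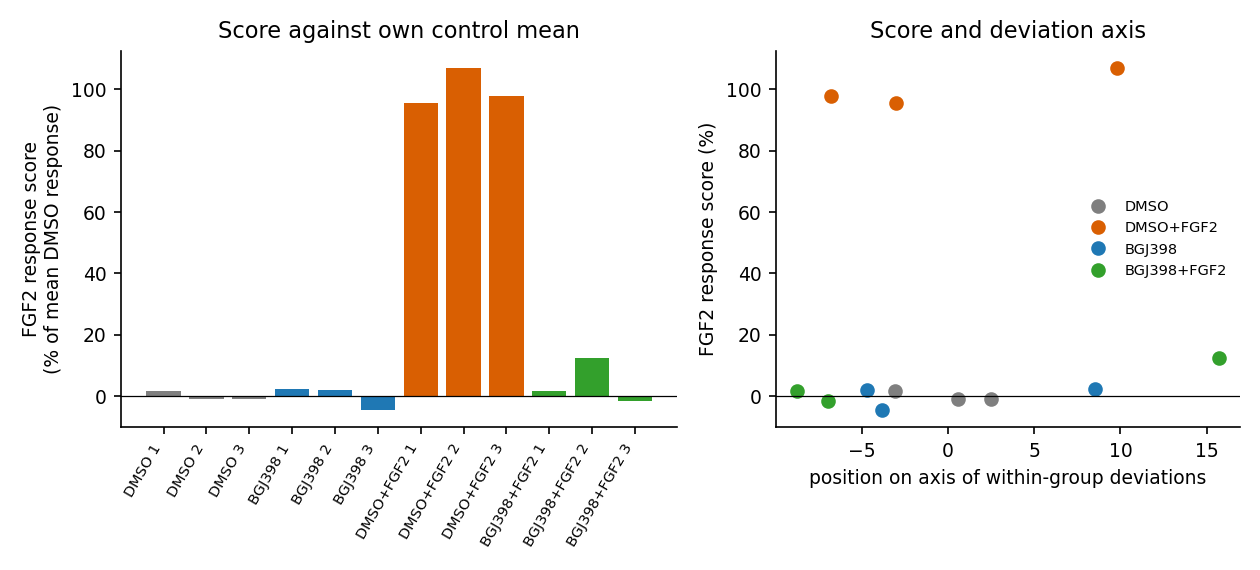
FGF2 response score of each library as a percent of the mean DMSO response, as bars (left) and against the position on the axis of within-group deviations (right), coloured by group. The 3 DMSO+FGF2 libraries sit at 95.4% to 107%, and of the BGJ398-treated libraries BGJ398+FGF2 replicate 2 is highest at 12.4% and lies farthest right at 15.7.

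Transcripts of the receptors were present in both groups, and receptor protein was not measured. Per length, the mean level of Fgfr1 was 101 ± 10 TPM without FGF2 and 101 ± 12 TPM with it under BGJ398 (SD, n = 3). For Fgfr2 the means were 86.9 ± 3.7 and 84.6 ± 9.3 TPM, for Fgfr3 12.9 ± 1.4 and 13.1 ± 1.8 TPM, and for the adaptor Frs2 65.7 ± 7.2 and 62.0 ± 14 TPM. Fgfr1 and Fgfr2 were thus the main receptor transcripts, and Fgfr4 did not pass 0.251 TPM in any library. In DMSO FGF2 lowered Fgfr2 by 0.81 ± 0.07 on the log2 scale (edgeR adjusted p 4.86e-06) and raised Fgfr1 by 0.35 ± 0.06 (adjusted p 0.0018). Under BGJ398 both changes were -0.02, with SEs of 0.07 for Fgfr2 and 0.06 for Fgfr1. The interaction passed for both, at 0.79 for Fgfr2 (adjusted p 0.000358) and -0.37 for Fgfr1 (adjusted p 0.0268). For Fgfr2 it passed in all of 21 other settings and for Fgfr1 in 13, where the adjusted p reached 0.0902. Gab1, a docking protein downstream of the receptors, fell in DMSO by 0.44 (adjusted p 0.00041) and changed by -0.01 under BGJ398. Of 16 tested receptor and adaptor genes, 1 rose and 3 fell in DMSO (7.57% and 5.82% of all genes) and 0 passed under BGJ398, where all 16 intervals lay within 1.5-fold. Of 5 tested FGF ligand genes, 1 fell in DMSO, Fgf5, and 0 passed under BGJ398. Fgf5 did not pass 1.32 TPM in any library, and its call in DMSO held in 17 of 22 other settings. Its interaction passed in 0 of 21 other settings, so a smaller response was not shown for it.

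Genes of the FGF and ERK feedback loop are the closest to the receptors among the readouts. Of 22 tested, 4 rose and 3 fell in DMSO at 48 h (all genes 7.57% and 5.82%), and 0 passed under BGJ398, where their median log2 fold change was -0.03 (0.00 over all genes). Dusp4, a phosphatase that inactivates ERK, rose in DMSO by 1.09 ± 0.15 (adjusted p 0.000232). It read 2.46, 2.72 and 2.64 CPM under BGJ398 and 2.58, 1.88 and 2.70 CPM when FGF2 was added, a change of -0.12 ± 0.17. The 2 groups overlapped, and the interaction was -1.21 (adjusted p 0.00647). Ier3, an immediate early gene, rose in DMSO by 0.66 (adjusted p 0.000325) and changed by 0.10 under BGJ398 (interaction -0.56, adjusted p 0.0279, passed in 13 of 21 other settings). Myc, a growth-promoting transcription factor, and the cyclin gene Ccnd1 fell in DMSO by 0.39 and 0.49 and changed by -0.08 and -0.02 under BGJ398. The interaction passed for both (Myc adjusted p 0.027, Ccnd1 adjusted p 0.0216), but it passed in only 10 of 21 other settings for Myc and in 14 for Ccnd1, with adjusted p of up to 0.119 and 0.0952. Egr1, another immediate early transcription factor, fell in DMSO by 0.38 (adjusted p 0.00541) and changed by -0.03 under BGJ398. Its interaction of 0.35 did not pass (adjusted p 0.101) and passed in only 3 of 21 other settings, so a smaller response was not shown for it.

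The classical feedback genes Dusp6, Spry1, Spry2, Spry4, Spred1, Etv4 and Etv5 did not pass in either comparison. Dusp6, an ERK phosphatase, read 24.5, 18.7 and 17.6 CPM in DMSO and 25.8, 24.3 and 21.8 CPM with FGF2. Under BGJ398 it read 16.4, 13.5 and 14.7 CPM, and 12.1, 14.7 and 14.7 CPM with FGF2. Its change was 0.25 ± 0.12 in DMSO (adjusted p 0.227) and -0.11 ± 0.13 under BGJ398. The ETS factor Etv5 read 9.63, 10.6 and 9.70 CPM under BGJ398 and 10.1, 9.36 and 9.28 CPM with FGF2, against 14.8 to 18.4 CPM in the 6 libraries without the inhibitor. Of the 31-base words of Etv5, 30.3% occur in other genes. Adding FGF2 under BGJ398 left the mean log2 level of the 22 genes at -0.093, -0.101 and 0.035 relative to the BGJ398 controls, while the 6 libraries without BGJ398 lay at 0.231 to 0.483. Spred3, a relative of Spred1, had the lowest unadjusted p of the list under BGJ398 (0.022, adjusted p 1), at -0.44 ± 0.17.

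Genes of bone formation gave some of the largest responses in DMSO. Of 19 tested osteoblast genes, 1 rose and 13 fell in DMSO (7.57% and 5.82% of all genes), with a median log2 fold change of -0.68. Under BGJ398 0 passed, the median was 0.01 (0.00 over all genes) and 10 of 19 were above 0. Alpl encodes the alkaline phosphatase that mineralization requires. Its 3 libraries read 12.4, 11.8 and 11.9 CPM in DMSO and 1.29, 1.58 and 1.09 CPM with FGF2. Under BGJ398 it read 17.7, 18.5 and 20.2 CPM, and 18.1, 15.8 and 18.3 CPM with FGF2. The FGF2 libraries overlapped the controls under BGJ398 and lay far below them in DMSO. The change was -0.11 ± 0.10 under BGJ398 (95% interval -0.32 to 0.10), and the end of that interval reached 9.95% of the DMSO change. The interaction was 3.07 (adjusted p 5.51e-07), the smallest adjusted p of all interactions. Spp1, which encodes osteopontin, was the 1 osteoblast gene that rose in DMSO, by 1.34 ± 0.08 (adjusted p 3.49e-07). Under BGJ398 it read 312, 299 and 309 CPM without FGF2 and 285, 355 and 309 CPM with it, a change of 0.04 ± 0.08. The FGF2 libraries lay on both sides of the controls, and replicate 2 was highest. Dlx5, a homeobox factor of osteoblast differentiation, changed by -1.28 in DMSO and by 0.07 under BGJ398 (interaction 1.35, adjusted p 3.19e-05).

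**Figure D4:**
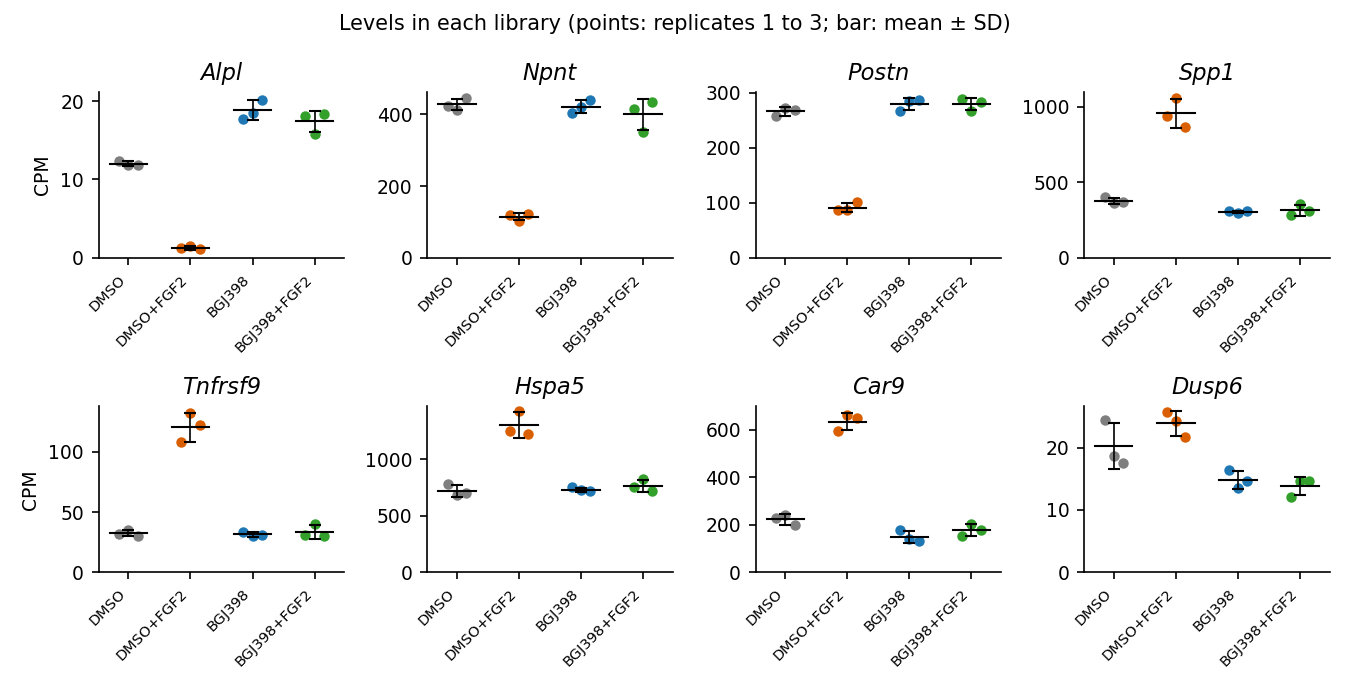
CPM of 8 genes in each of the 12 libraries (points, replicates 1 to 3 from left to right) with the mean and SD of each group. In each panel the BGJ398 and BGJ398+FGF2 groups overlap, while for the first 7 genes the DMSO+FGF2 libraries lie wholly apart from the DMSO libraries, and for Dusp6 they overlap.

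Of 26 tested matrix glycoproteins and proteoglycans, 2 rose and 14 fell in DMSO (median -0.42), against 7.57% and 5.82% of all genes. Under BGJ398 0 passed (median -0.03). Npnt, which encodes the integrin ligand nephronectin, was the abundant gene with the largest change in DMSO, -1.90 ± 0.09 (adjusted p 1.24e-08). Under BGJ398 it read 405, 419 and 441 CPM without FGF2 and 415, 350 and 434 CPM with it. The lowest of these was replicate 2 with FGF2, and the change was -0.08 ± 0.08. Postn, which encodes the matricellular protein periostin, read 266, 284 and 287 CPM under BGJ398 and 289, 267 and 282 CPM with FGF2. Its change was 0.00 ± 0.06 under BGJ398 against -1.54 ± 0.07 in DMSO (adjusted p 1.12e-08), and the interval under BGJ398 reached at most 8.62% of the DMSO change. For the small proteoglycans Fmod and Aspn the changes were -0.01 and -0.03 under BGJ398 and -1.08 and -1.54 in DMSO.

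Eln, which encodes elastin, had the lowest log2 fold change in DMSO of the called protein-coding genes of at least 5 CPM, -3.66 ± 0.23 (adjusted p 3.56e-07). Under BGJ398 it read 12.3, 7.76 and 7.40 CPM without FGF2 and 6.47, 6.24 and 7.06 CPM with it. The groups did not overlap, although the gap between the lowest control and the highest FGF2 library was small and control replicate 1 stood apart. The change of -0.47 ± 0.19 had an unadjusted p of 0.0295 and an adjusted p of 1. It equals 12.9% of the DMSO change, and the interval (-0.89 to -0.06) reached at most 24.3% of it. Without control replicate 1 the change was -0.20, and without BGJ398+FGF2 replicate 2 it was -0.44.

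Of 26 tested fibrillar collagen and processing genes, 4 rose and 12 fell in DMSO (7.57% and 5.82% of all genes). Under BGJ398 0 passed, all 26 intervals lay within 1.5-fold and the median was -0.01. Col11a1, a minor fibrillar collagen, changed by -1.38 in DMSO and by -0.10 under BGJ398. Col27a1 changed by -1.72 and -0.06. Of 15 tested basement membrane genes, 1 rose and 8 fell in DMSO (median -0.36), against the same 7.57% and 5.82% of all genes. Under BGJ398 0 passed (median -0.06, and 0.03 without the 3 libraries that stood apart). Col4a1 and Col4a2, the main chains of type IV collagen, changed by -0.79 and -0.85 in DMSO and by -0.11 and -0.10 under BGJ398. Among secreted and adhesion genes, the protease gene Pappa2 changed by -2.04 in DMSO and -0.09 under BGJ398, the guidance ligand Slit3 by -1.64 and -0.12, and Hmcn1 (hemicentin) by -1.74 and -0.27. The interaction of Hmcn1 passed in 12 of 21 other settings. The cytoskeletal adaptor Sorbs2 changed by -1.49 in DMSO and by -0.01 under BGJ398.

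Of the 10 called protein-coding genes of at least 5 CPM with the highest change in DMSO, none passed under BGJ398. Tnfrsf9, a receptor of the TNF receptor family, read 33.2, 29.9 and 30.9 CPM under BGJ398 and 30.5, 39.9 and 30.1 CPM with FGF2, against 108 to 132 CPM with FGF2 in DMSO. Replicate 2 was again the high library, and the change of 0.09 ± 0.11 stood against 1.90 ± 0.11 in DMSO (adjusted p 1.84e-07). Sema7a, a membrane-anchored semaphorin, changed by 1.65 in DMSO and by -0.14 ± 0.13 under BGJ398. For Msln (mesothelin) the 2 values were 1.47 and 0.07, for the acetylcholine receptor subunit Chrnb1 1.45 and 0.14, for the cytidine deaminase Cda 1.44 and 0.06, and for Cp (ceruloplasmin) 1.41 and 0.03. Hmga1, a chromatin protein, changed by 1.44 and -0.04, and 62.1% of its 31-base words occur in other genes. Gpr35, a receptor of low level here, changed by 1.42 and by 0.23 ± 0.22, and its interval reached 49.4% of the DMSO change. These genes were chosen by their change in DMSO, which is therefore on average too large and also enters the interaction. The interaction passed for each of these 8 genes, with adjusted p between 1.41e-05 (Cp) and 0.0392 (Gpr35). For Gpr35 it passed in only 10 of 21 other settings (highest adjusted p 0.111).

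Chaperones and other genes of the unfolded protein response relieve protein folding stress in the endoplasmic reticulum. Of 23 tested genes, 13 rose, 1 fell and 9 did not pass in DMSO (median 0.43), while 7.57% of all genes rose and 5.82% fell. Under BGJ398 0 passed and the median was 0.05, or -0.01 without the 3 libraries that stood apart. Hyou1, an endoplasmic reticulum chaperone, read 210, 205 and 201 CPM under BGJ398 and 199, 206 and 208 CPM with FGF2. Its change was -0.01 ± 0.05 against 1.01 ± 0.05 in DMSO (adjusted p 3.1e-08). Hspa5, which encodes the chaperone BiP, read 750, 729 and 714 CPM under BGJ398 and 758, 823 and 716 CPM with FGF2, a change of 0.07 ± 0.07 against 0.85 ± 0.07. Sdf2l1, another chaperone gene, changed by 0.09 ± 0.13 against 1.46 ± 0.12 and was highest in replicate 2, at 34.3 CPM. The mean log2 level of the list relative to the BGJ398 controls was 0.004, 0.183 and -0.091 in the 3 BGJ398+FGF2 libraries and 0.427 to 0.527 in the DMSO+FGF2 libraries.

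Glycolysis and hypoxia genes had the largest median under BGJ398 of the lists with at least 5 tested genes. Of 29 tested, 22 rose and 1 fell in DMSO (median 0.48; of all genes 13.4% were called). Under BGJ398 0 passed, the median was 0.14 (0.00 over all genes), 26 of 29 were above 0, and 5 had an unadjusted p under 0.05 (2.59% of all genes). The median was also 0.14 without the 3 libraries that stood apart. The mean log2 level of the list was 0.05, 0.217 and 0.052 in the BGJ398+FGF2 libraries and 0.148, -0.041 and -0.107 in the BGJ398 controls. Control replicate 1 lay above 2 of the 3 FGF2 libraries, so the groups overlapped. Car9, a hypoxia-induced carbonic anhydrase, read 178, 139 and 130 CPM without FGF2 and 154, 203 and 179 CPM with it. Its change of 0.26 ± 0.12 (unadjusted p 0.0488, adjusted p 1) equals 17.1% of its DMSO change of 1.52 ± 0.12, the largest share among abundant response genes. Without control replicate 1 the change under BGJ398 was 0.41, and without BGJ398+FGF2 replicate 2 it was 0.16. Ero1l, an oxidase of the endoplasmic reticulum that hypoxia also induces, read 86.2, 87.0 and 79.7 CPM without FGF2 and 98.7, 100 and 94.0 CPM with it. These groups did not overlap, and its change of 0.21 ± 0.07 (unadjusted p 0.0143, adjusted p 1) stood against 0.72 ± 0.07 in DMSO.

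Bhlhe40, a transcriptional repressor responsive to hypoxia, had the lowest unadjusted p of the abundant genes past 1.2-fold under BGJ398. It read 132, 133 and 124 CPM without FGF2 and 163, 156 and 152 CPM with it, with no overlap. The change was 0.28 ± 0.08 (unadjusted p 0.00304, adjusted p 1), which is 36.8% of the DMSO change of 0.76 ± 0.08, and its interaction of -0.48 passed (adjusted p 0.0232), though in only 14 of 21 other settings (highest adjusted p 0.0765). The prolyl hydroxylase gene Egln1 and the mitophagy receptor gene Bnip3 changed by 0.27 ± 0.12 and 0.33 ± 0.13 under BGJ398 and by 0.56 and 0.52 in DMSO. For these 2 the interaction did not pass (adjusted p 0.418 and 0.659), so a smaller response under BGJ398 was not shown for them. Without BGJ398+FGF2 replicate 2 the changes were 0.16 for Egln1 and 0.18 for Bnip3, and without control replicate 1 they were 0.39 and 0.38. S100a4, a calcium-binding protein, moved the other way: it changed by -0.27 ± 0.10 under BGJ398 and by 0.67 ± 0.10 in DMSO (interaction -0.95, adjusted p 0.00166), and 49.2% of its 31-base words occur in other genes. Without control replicate 1 the change of S100a4 under BGJ398 was -0.15. Sept2, a septin gene, changed by -0.32 ± 0.12 under BGJ398 and by -0.42 ± 0.12 in DMSO, with 42.5% of its words shared. Without control replicate 1 its change under BGJ398 was -0.20.

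**Figure D5:**
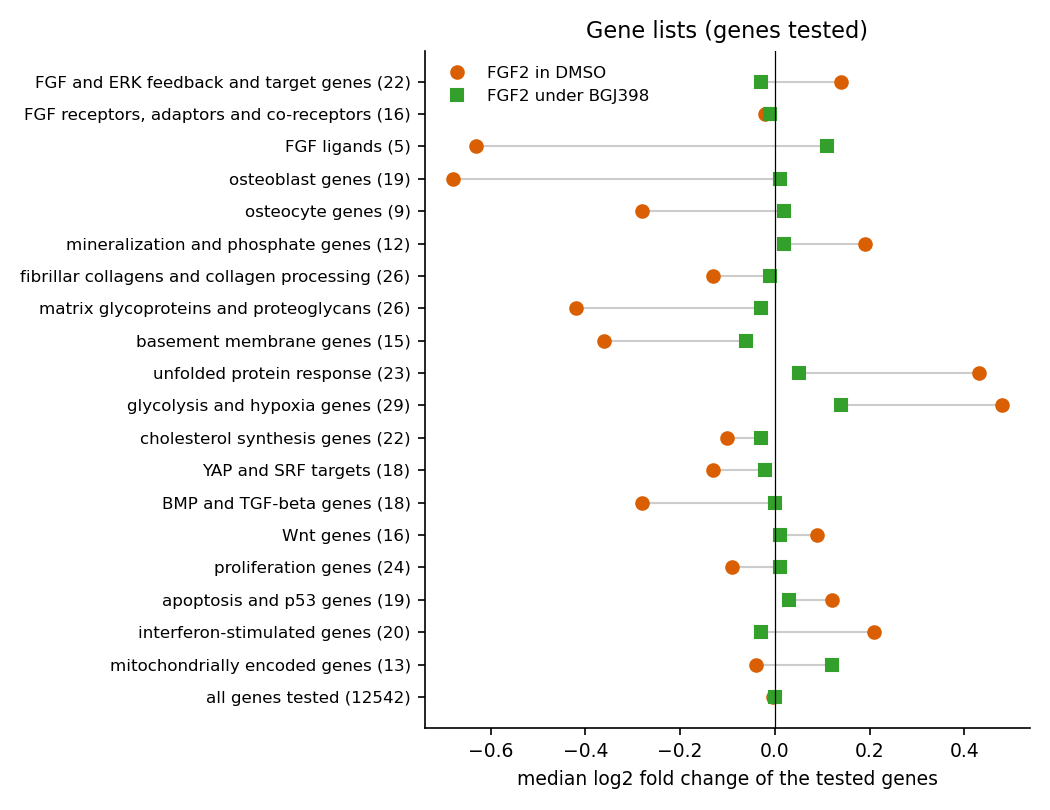
Median log2 fold change of each gene list with at least 5 tested genes (number tested in brackets), after FGF2 in DMSO (orange circles) and under BGJ398 (green squares), with all tested genes in the bottom line. Under BGJ398 the medians lie between -0.06 and 0.14, and in DMSO between -0.68 and 0.48.

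Mitochondrially encoded genes came next. Of 13 tested, 0 were called in either comparison (13.4% of all genes were called in DMSO). Under BGJ398 the median was 0.12 (0.00 over all genes), 11 of 13 were above 0 and 4 had an unadjusted p under 0.05 (2.59% of all genes). Without the 3 libraries that stood apart the median was 0.02. Their share of all reads was 1.70% to 1.92% in the BGJ398 controls and 1.88% to 2.12% in the BGJ398+FGF2 libraries. The part of that share in the changes of single genes was not tested. mt-Nd3, a subunit of complex I, read 48.1, 39.3 and 27.8 CPM without FGF2 and 58.6, 76.3 and 50.7 CPM with it, a change of 0.69 ± 0.19 (unadjusted p 0.0034, adjusted p 1), with 98.1% of its words shared with other genes.

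The remaining lists also had 0 genes called under BGJ398. Their counts in DMSO stand against 7.57% of all genes that rose and 5.82% that fell. In DMSO, 3 of 18 tested YAP and SRF targets rose and 8 fell, 2 of 18 BMP and TGF-beta genes rose and 9 fell, and 3 of 16 Wnt genes rose and 5 fell. Their medians under BGJ398 were -0.02, 0.00 and 0.01. Fst, which encodes the activin antagonist follistatin, changed by -1.29 in DMSO and by 0.07 under BGJ398. The connective tissue growth factor gene Ccn2 changed by -0.76 and by -0.08, and its interaction passed in 16 of 21 other settings. For 12 mineralization and phosphate genes (5 rose and 3 fell in DMSO) and 9 osteocyte genes (3 rose and 3 fell) the median under BGJ398 was 0.02. The chaperone gene Hyou1 is among the osteocyte genes that rose. Enpp1, the enzyme that makes the mineralization inhibitor pyrophosphate, changed by 1.03 in DMSO and by 0.00 under BGJ398. Of 24 proliferation genes 5 fell in DMSO, of 22 cholesterol synthesis genes 5 fell, of 19 apoptosis and p53 genes 5 rose and 1 fell, and of 20 interferon-stimulated genes 5 rose and 1 fell. Their medians under BGJ398 lay between -0.03 and 0.03.

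Of the markers of other cell types, few had enough reads to be tested: 2 of 7 adipocyte, 4 of 7 macrophage, 3 of 7 muscle, 1 of 6 endothelial, 4 of 8 chondrocyte and 3 of 5 tendon markers. None of those tested was called under BGJ398. The summed level of 7 adipocyte markers was 20.6 to 25.4 CPM in the BGJ398 controls and 18.9 to 28.4 CPM with FGF2, and 3 of them had no read in any library. For 7 macrophage markers the sums were 5.09 to 6.79 CPM and 5.61 to 7.32 CPM, for 7 muscle markers 4.53 to 5.44 CPM and 4.20 to 5.21 CPM, and for 6 endothelial markers 0.735 to 1.46 CPM and 0.484 to 1.04 CPM. For 8 chondrocyte markers they were 22.3 to 23.5 CPM and 21.2 to 26.2 CPM. The 5 tendon markers summed to 2090 to 2240 CPM and 2060 to 2190 CPM, nearly all from Fmod, which is also counted among the matrix genes.

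The 10 protein-coding genes of at least 5 CPM with the lowest p under BGJ398 were Gm20605, Tifa, Dact2, Bhlhe40, Tnfaip8, Srd5a1, mt-Nd3, Pim2, Myo1h and Dcaf12, with unadjusted p from 0.00131 to 0.00368 and adjusted p of 1. They were chosen by that p, so it is a description. In DMSO, Dact2 and Bhlhe40 were called and the other 8 were not. Dact2, a regulator of Wnt and TGF-beta signalling, read 16.2, 17.1 and 14.5 CPM without FGF2 and 19, 20.4 and 19.3 CPM with it. Its change was 0.29 ± 0.08 in both comparisons (adjusted p 0.0251 in DMSO), with an interaction of 0.01. Its call in DMSO held in 15 of 22 other settings. Tifa, an adaptor of NF-kappaB signalling, read 12.9, 12.7 and 13.6 CPM and 16.4, 15.5 and 16.5 CPM with FGF2. It changed by 0.31 ± 0.08 under BGJ398 and by 0.11 ± 0.08 in DMSO. Pim2, a serine/threonine kinase gene, changed by 0.52 ± 0.14 and by 0.44 ± 0.14 in DMSO (adjusted p 0.0519).

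The 10 response genes with the largest share kept were Cox7a1 (47.3%), Actn3 (45.1%), Duoxa1 (42.3%), Cdkl1 (40.2%), Mest (39.6%), B3galt2 (38.4%), Tgm2 (38.0%), Pbp2 (37.4%), Il33 (36.7%) and Bglap2 (35.3%). None was above 3.32 CPM in any library, and none of their unadjusted p under BGJ398 was under 0.05. Il33, which encodes an alarmin cytokine, read 0.289, 0.101 and 0.294 CPM without FGF2 and 0.407, 0.807 and 0.189 CPM with it, so the groups overlapped. Cox7a1, a subunit of cytochrome c oxidase, read 0.530, 0.403 and 0.637 CPM and 0.588, 0.807 and 0.805 CPM. Its interval reached past the full DMSO change, so nothing about its block could be read at this depth. For Bglap2, an osteocalcin gene, 95.2% of the 31-base words occur in other genes.

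limma-voom, other scaling and most sets with 1 library left out also called 0 genes under BGJ398, while 7 other settings called between 1 and 6. Most of the genes so called are pseudogenes or near-identical copies. DESeq2 called 2310030G06Rik, Rps12l1, Zfp968, Gm10359 and Gm2004. Without the filter on low counts edgeR called 2310030G06Rik, Gm8186, Gm10131, Rps12l1, Gm10359 and Gm2004. The 4 genes called without the 3 libraries that stood apart were Abhd4, Rps12l1, Gm10359 and Gm2004, and 2810047C21Rik1 was called without BGJ398 replicate 2. Abhd4, a lipase gene, read 24.3, 82.2 and 73.1 CPM without FGF2 and 24.4, 69.7 and 16.5 CPM with it, so the libraries of 1 group differed more than the group means. For Rps12l1, Gm10359, Gm2004 and Gm8186 all 31-base words occur in other genes, for Zfp968 97.3% and for Gm10131 95.5%. Rps12l1, a ribosomal protein pseudogene, read 196, 146 and 97.5 CPM without FGF2 and 51.4, 60.5 and 63.5 CPM with it, a change of -1.33 ± 0.20 (edgeR adjusted p 0.194). Gm10359, a pseudogene, read 421, 467 and 452 CPM and 552, 532 and 665 CPM with FGF2. It changed by 0.39 ± 0.08 under BGJ398 (adjusted p 1) and by 0.54 ± 0.08 in DMSO (adjusted p 0.000572). Gm2004 read 3.56, 2.57 and 2.50 CPM without FGF2 and 0 CPM in all 3 libraries with it. 2310030G06Rik, whose words are not shared, read 2.22, 1.21 and 0.098 CPM without FGF2 and 0 CPM in all 3 libraries with it. Zfp968 was at 0 CPM in all 3 controls and in 2 of the 3 FGF2 libraries and read 18.7 CPM in replicate 3.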

How the data were processed

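Polyadenylated RNA of 12 Ocy454 cultures was sequenced, in 4 groups of 3 libraries. Per the submitters' processing notes, the authors used Salmon and build GRCm39. Its version and library type are not given in the sources used, and without strand the reads of a gene and an antisense partner cannot be separated. The deposited tables hold, per the file headers, expected counts (estimated reads), TPM and effective lengths for 116178 transcripts. TPM were scaled for length and library total before deposit by the authors.

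Expected counts were summed per gene by transcript identifier with the GENCODE M21 annotation (build GRCm38) and rounded. It matched 114656 transcripts of 35214 genes. The 1522 unmatched transcripts, 0.499% to 0.641% of reads, stayed out of library sizes and tests. No coordinates are given, since the builds differ. Where 36 symbols had several identifiers, the identifier with most reads took the plain symbol. The Sept2 described is the copy listed with its identifier.

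Tests used edgeR 4.0.16 (R 4.3.3): filterByExpr by group, TMM scaling, and 1 quasi-likelihood model of 4 group means fitted to 12 libraries (8 residual degrees of freedom, common biological coefficient of variation 8.49%), 2-sided, with a Benjamini-Hochberg adjusted p threshold of 0.05. Errors of fold changes are SEs, and 95% intervals are the log2 fold change with t quantile times SE. The script was tested on simulated data. Replicate pairs differed by 3.22 to 24.1 times the Poisson expectation, so none was counted as a duplicate. Shared 31-base words were counted in the GENCODE M21 transcripts. limma 3.58.1 and DESeq2 1.42.0 were alternatives.

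Genes were named by rule: the 10 lowest p under BGJ398 and the 10 highest and 10 lowest changes in DMSO (protein-coding, at least 5 CPM), the 10 most changed and 10 most abundant of the genes of at least 100 CPM, 23 readouts, up to 5 members of each of 25 lists, every gene called under BGJ398 by any setting, and the 10 response genes with the largest share kept. Not every gene so chosen is described. Members and lists were chosen with earlier results of these data known.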

Additional observations from a re-analysis of the deposited data

Results flagged for a closer look

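The 2 FGF2 changes, in DMSO and under BGJ398, differed by a test of the difference for 532 genes (edgeR quasi-likelihood test, Benjamini-Hochberg adjusted p under 0.05). The values below are log2 fold changes under BGJ398 minus those in DMSO for the genes described above. Positive differences, where FGF2 lowered the gene in DMSO, were found for Eln (3.19), Alpl (3.07), Pappa2 (1.95), Npnt (1.82), Col27a1 (1.65), Postn (1.55), Slit3 (1.52), Aspn (1.51), Sorbs2 (1.48), Hmcn1 (1.47), Fst (1.36), Dlx5 (1.35), Col11a1 (1.28), Fmod (1.07), Fgfr2 (0.79), Col4a2 (0.75), Sparc (0.73), Ccn2 (0.68), Col4a1 (0.68), Col1a1 (0.65), Col1a2 (0.53), Ccnd1 (0.47), Gab1 (0.43) and Myc (0.31). Negative differences, where FGF2 raised the gene in DMSO, were found for Tnfrsf9 (-1.80), Sema7a (-1.78), Hmga1 (-1.48), Msln (-1.39), Cda (-1.38), Cp (-1.38), Sdf2l1 (-1.37), Chrnb1 (-1.31), Spp1 (-1.30), Car9 (-1.26), Dusp4 (-1.21), Gpr35 (-1.19), Enpp1 (-1.03), Hyou1 (-1.02), S100a4 (-0.95), Hspa5 (-0.79), Ier3 (-0.56), Ero1l (-0.51), Bhlhe40 (-0.48) and Fgfr1 (-0.37).

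For 5 other genes the difference passed on few or shared reads. For Rps12l1 (-1.53) FGF2 did not pass in DMSO and the lower level was under BGJ398. The fitted differences of Gm8186 (-10.13), 2310030G06Rik (-8.99), Gm2004 (-8.32) and Gm10221 (-7.74) have no usable size: the first 3 were at 0 CPM in all 3 BGJ398+FGF2 libraries, and Gm10221 is a pseudogene of 2.60 CPM on average with a fitted change of 8.58 in DMSO.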

How the results depend on the processing

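Under BGJ398, where edgeR called 0 genes (325 at an unadjusted p under 0.05), DESeq2 called 5, edgeR without the filter on low counts 6, a fit of the 6 BGJ398-treated libraries alone 1, and a fit without the 3 libraries that stood apart 4. Leaving out 1 library at a time gave 0 to 1 call. In DMSO the count was 1018 (without DMSO replicate 3) to 2256 (without BGJ398+FGF2 replicate 2) over single libraries left out, with 1052 when DMSO replicate 2 was left out and 1086 when it was DMSO+FGF2 replicate 2, 2611 without the 3 libraries and 2837 without the 2 of them that had BGJ398. The interaction count was 825 with DESeq2, 350 with length-scaled TPM, 328 (without DMSO replicate 2) to 956 (without BGJ398+FGF2 replicate 2) over single libraries left out, with 337 without DMSO replicate 3, 1038 without the 3 libraries and 901 without the 2. The slope of response genes, 4.62%, was -3.26% without the filter, -7.05% without the 2 libraries, and -8.78% (without BGJ398+FGF2 replicate 2) to 5.73% (without DMSO+FGF2 replicate 2) over single libraries left out, with -5.71% without DMSO replicate 2. With protein-coding genes only, those 4 settings with a negative slope gave 2.54%, 2.15%, 1.43% and 4.74%. Bounded genes numbered 313 of 448 with a 1.5-fold threshold, 860 of 1680 with all called genes and 64 of 71 from 5 CPM, and they were 107 to 132 over single libraries left out. Abundant genes within 1.5-fold numbered 4973 of 4985 from 50 CPM, 534 of 537 from 300 CPM, and 2447 to 2467 of 2472 over single libraries left out. Settings that leave out several libraries, and those on protein-coding genes or 5 CPM, were chosen after seeing the data. Where no construction shows it, the cause was not tested.

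Same-numbered libraries of the 2 BGJ398 groups had correlated deviations of -0.255, -0.36 and 0.205, and those of the DMSO groups -0.0995, 0.3 and -0.0531, so the numbers were not taken to pair the samples. With the replicate number as a block, 0 genes were called under BGJ398, 1503 in DMSO and 428 for the interaction, 121 response genes were bounded below 50%, 2466 abundant genes lay within 1.5-fold, and the slope was 4.07%. Among named genes, no change turned its direction where it was called, 19 gene-and-setting pairs passed under BGJ398 only in the alternative, and 94 interactions and 78 changes in DMSO no longer passed in an alternative. Depth and 3 libraries a group limit the weakly expressed genes: under 1 CPM the median 95% interval reached 2.09-fold to either side of the estimate.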
